A study of Mus musculus with 64 samples.

Results

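The 10 genes described here encode structural maintenance of chromosomes (SMC) proteins, subunits that work with them, and Smchd1. They are Smchd1, Smc2, Smc3, Smc4, Smc5, Smc6, Ncapd2, Ncapg, Ncapd3 and Ncapg2, and they were taken by gene symbol from the 26385 genes that each RNA-seq table lists. RNA was measured in 47 mouse libraries, each from 1 animal: 20 of sorted male germ cells and 27 of whole testis. The study asked what the loss of MORC1, a nuclear ATPase of the germline, does to RNA in developing male germ cells, and set it beside the loss of DNMT3L and MIWI2.

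In the Morc1 tg allele, on the FVB/N background, a tyrosinase transgene insertion removed exons 2 to 4, which encode part of the ATPase domain. The libraries labelled Morc1 het are called tg/+ and those labelled Morc1 KO tg/tg. Germ cells came from tg/+ and tg/tg males at embryonic days E16.5 (2 libraries of each genotype) and E18.5 (2 of each) and at postnatal days P2.5 (3 tg/+ and 2 tg/tg) and P10.5 (4 tg/+ and 3 tg/tg). Up to P2.5 the cells were sorted for an Oct4-IRES-Gfp reporter on a mixed background. At P10.5 they were sorted by low side scatter, high EpCAM and the lack of MHC class I, so the sort and the background change together between P2.5 and P10.5 and cannot be told apart from age. Whole testis of the Morc1 line was taken at P10.5 (1 +/+, 2 tg/+ and 3 tg/tg, plus 1 +/+ and 1 tg/+ labelled preliminary) and at P14.5 (3 tg/+ and 3 tg/tg). Testes of the Dnmt3l line (3 +/+, 3 +/- and 3 -/-) and of the Miwi2 line (2 libraries labelled het and 2 labelled KO) were taken at P10.5. No strain is given for the Dnmt3l and Miwi2 lines in the sources used here.

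SMC proteins are long coiled-coil ATPases that pair up and, closed by further subunits, form rings that hold or fold DNA. Smc2 and Smc4 form the core of condensin, which compacts chromosomes for mitosis and meiosis. Ncapd2 and Ncapg belong to condensin I, which reaches chromosomes after the nuclear envelope breaks down, and Ncapd3 and Ncapg2 to condensin II, which is nuclear throughout the cell cycle. Smc3 is a core subunit of cohesin, which holds sister chromatids together and folds chromatin into loops. Smc5 and Smc6 form the core of a complex that acts in recombination and DNA repair. Smchd1 is a noncanonical member with an SMC hinge and, in place of the SMC ATPase head, a GHKL ATPase domain of the type found in MORC proteins. It is known for its part in X inactivation and in the silencing of clustered and imprinted genes.

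On the mm9 build the genes lie apart: Smchd1 at chr17:71693829-71824683 on the minus strand, Smc2 at chr4:52452115-52501237 on the plus strand and Smc4 at chr3:68808660-68838545 on the plus strand. The condensin I genes are at chr6:125118027-125141613 on the minus strand (Ncapd2) and chr5:46061161-46091783 on the plus strand (Ncapg). Those of condensin II are at chr9:26837760-26902896 (Ncapd3) and chr12:117643875-117702004 (Ncapg2), both on the plus strand. Smc3 is at chr19:53674886-53720323 on the plus strand, Smc5 at chr19:23283224-23348367 on the minus strand and Smc6 at chr12:11272692-11326591 on the plus strand. Smc4 holds the microRNA genes Mir15b and Mir16-2, Ncapd2 holds Scarna10, and Ncapg overlaps Lcorl on the other strand, so reads within those stretches are uncertain.

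Several of the condensin genes fell together in Morc1 tg/tg testis and rose together after birth in control germ cells. From E18.5 to P2.5, however, Ncapg did not pass and Ncapd3 fell. With these folds known, the 250 bases before each start listed by RefSeq (GRCm38.p6) were read. The listed starts were not matched to the mm9 positions above. For 9 of the 10 genes an entry was found, and Smc4 had none. They were searched on both strands for TTTGAA (the core of the cell cycle homology region, CHR, bound by complexes that time genes of the late cell cycle) and for CCAAT (the box bound by NF-Y). Ncapd3 has a pair of listed starts, so the 9 genes have 10 promoters. TTTGAA was present in 6 of the 10, against 16% of all 32851 promoters of this length, and for Ncapd3 only at the downstream start; CCAAT was present in 3 of the 10, against 33.8%. The stretches of the condensin genes Ncapg, Ncapg2, Ncapd2 and Smc2 are shown. Their RNA fell in Morc1 tg/tg testis at both ages and in Dnmt3l-/- testis. That of Smchd1 is shown as an example with neither motif, and Smc3, Smc5 and the upstream Ncapd3 start also have neither. Smchd1 and Smc5 RNA fell too, in P14.5 tg/tg and Dnmt3l-/- testis, and Smc3 RNA fell in Dnmt3l-/- testis. Of the genes with TTTGAA, Smc6 did not pass in Dnmt3l-/- testis, and neither Smc6 nor Ncapd3 passed in P10.5 tg/tg testis. Capitals mark both motifs, read on either strand.
Ncapg, chr5:45669675-45669924, plus strand: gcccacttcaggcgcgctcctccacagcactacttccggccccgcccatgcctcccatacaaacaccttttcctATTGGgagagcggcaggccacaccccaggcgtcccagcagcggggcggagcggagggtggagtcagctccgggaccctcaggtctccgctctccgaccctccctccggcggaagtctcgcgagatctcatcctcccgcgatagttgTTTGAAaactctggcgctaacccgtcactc
Ncapg2, chr12:116405186-116405435, plus strand: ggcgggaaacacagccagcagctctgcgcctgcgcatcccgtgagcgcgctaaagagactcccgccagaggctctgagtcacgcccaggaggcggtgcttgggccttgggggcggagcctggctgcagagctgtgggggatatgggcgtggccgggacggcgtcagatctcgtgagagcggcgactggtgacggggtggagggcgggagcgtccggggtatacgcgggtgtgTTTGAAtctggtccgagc
Ncapd2, chr6:125191587-125191836, minus strand: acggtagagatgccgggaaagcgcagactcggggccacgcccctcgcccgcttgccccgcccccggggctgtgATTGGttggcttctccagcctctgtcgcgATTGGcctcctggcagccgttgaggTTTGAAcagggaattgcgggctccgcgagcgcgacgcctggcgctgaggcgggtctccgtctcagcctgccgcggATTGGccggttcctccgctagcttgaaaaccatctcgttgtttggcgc
Smc2, chr4:52438971-52439220, plus strand: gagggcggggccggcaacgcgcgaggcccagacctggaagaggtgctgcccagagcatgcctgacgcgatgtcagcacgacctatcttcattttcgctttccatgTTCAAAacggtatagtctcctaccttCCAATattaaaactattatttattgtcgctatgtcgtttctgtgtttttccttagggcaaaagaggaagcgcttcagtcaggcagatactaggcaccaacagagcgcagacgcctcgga
Smchd1, chr17:71475344-71475593, minus strand: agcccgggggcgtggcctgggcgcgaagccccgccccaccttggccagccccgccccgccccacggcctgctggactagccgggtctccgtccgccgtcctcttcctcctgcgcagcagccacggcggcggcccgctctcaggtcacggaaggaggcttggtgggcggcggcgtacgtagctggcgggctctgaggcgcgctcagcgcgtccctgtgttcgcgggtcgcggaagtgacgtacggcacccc
The TTTGAA of Ncapg2 began 18 bases and that of Ncapg 30 bases before the start, and those of Ncapd2 and Smc2 began 123 and 145 bases before it. Those of Smc6 and of the downstream Ncapd3 start, not shown, began 199 and 249 bases before it. The Smchd1 stretch held 33 CpG dinucleotides, against a median of 6 over all promoters, and 4.03% of promoters held as many. These matches are descriptions of the letters alone.

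Sorted libraries held 2413679 to 14918478 reads counted on genes (median 7542692) and testis libraries 22509570 to 42137954 (median 28815956). No member was at 0 reads in any library; the lowest count was 41 reads, for Ncapg. Levels are given as RPKM (reads scaled by exon length and by mapped reads), on which genes can be compared. Folds are log2 differences fitted by edgeR on the counts, with their standard error (SE), and a gene is said to have changed when its p adjusted over all genes tested was under 0.05. Since a sample is 1 animal and each library a pool of cells, fewer cells of a type and less RNA per cell cannot be told apart in any of these values. Morc1 RNA was lower in every tg/tg library than in any tg/+ library of the same stage and source, and Dnmt3l RNA was at 0.0371 to 0.0464 RPKM in Dnmt3l-/- against 0.374 to 1.02 RPKM in controls. Piwil4, the gene of MIWI2, was not reduced: it was at 10.7 and 11.6 RPKM in the libraries labelled Miwi2 KO against 6.65 and 7.01 RPKM in those labelled het. Summed germ cell markers were at 391 to 1058 RPKM in sorted libraries and at 151 to 596 RPKM in testis, so these ranges overlapped. The 5 Sertoli markers summed to 24.2 to 107 RPKM in sorted libraries and to 1735 to 4660 RPKM in testis. Leydig markers in sorted cells summed to 0.871 to 16.4 RPKM, with Insl3 at 0 in every library of all sorted groups but E16.5 tg/+. Peritubular markers summed to 2.94 to 10.4 RPKM in the sorted groups other than E18.5 tg/tg, where both libraries held 11.6 RPKM or more, against 171 to 506 RPKM in testis. Endothelial markers reached testis levels (17.7 to 45.6 RPKM) in sorted E18.5 cells, at 23.3 to 33.0 RPKM, and in some P2.5 libraries, which went up to 20.1 RPKM, and so did macrophage markers (19.0 to 66.0 RPKM in testis) in 1 P2.5 tg/tg library, at 23.7 RPKM.

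In sorted tg/+ germ cells Smc3 was the most abundant of the 10 RNAs at every stage. At P10.5 it was at 76.1 to 90.1 RPKM, followed by Smc4 (47.2 to 55.0 RPKM) and Smc5 (39.7 to 45.0 RPKM), and none of these ranges met. Smchd1 (34.3 to 37.6 RPKM) and Smc6 (31.9 to 35.0 RPKM) overlapped, as did Ncapd2 (20.7 to 25.0 RPKM) and Smc2 (20.2 to 21.8 RPKM). Ncapd3 was at 17.8 to 19.0 RPKM, and the lowest pair, Ncapg (10.9 to 12.7 RPKM) and Ncapg2 (10.9 to 12.8 RPKM), could not be ordered. In P10.5 control testis of the Morc1 line, without the preliminary libraries, the order was different and flatter. There Smc3 (39.7 to 43.2 RPKM) was followed by Smc6 (35.7 to 36.2 RPKM) and Smc4 (33.8 to 36.5 RPKM), which overlapped, and Ncapg (11.1 to 11.4 RPKM) and Ncapg2 (9.23 to 9.97 RPKM) were again the lowest. In the 6 control testes of the Dnmt3l line Ncapd2 stood first instead, at 48.7 to 59.9 RPKM, above Smc3 at 37.6 to 45.4 RPKM, and Ncapg (9.74 to 13.4 RPKM) and Ncapg2 (10.6 to 16.0 RPKM) overlapped. Sorted cells and testis were prepared with different kits, so no test was made between them.

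**Figure D1:**
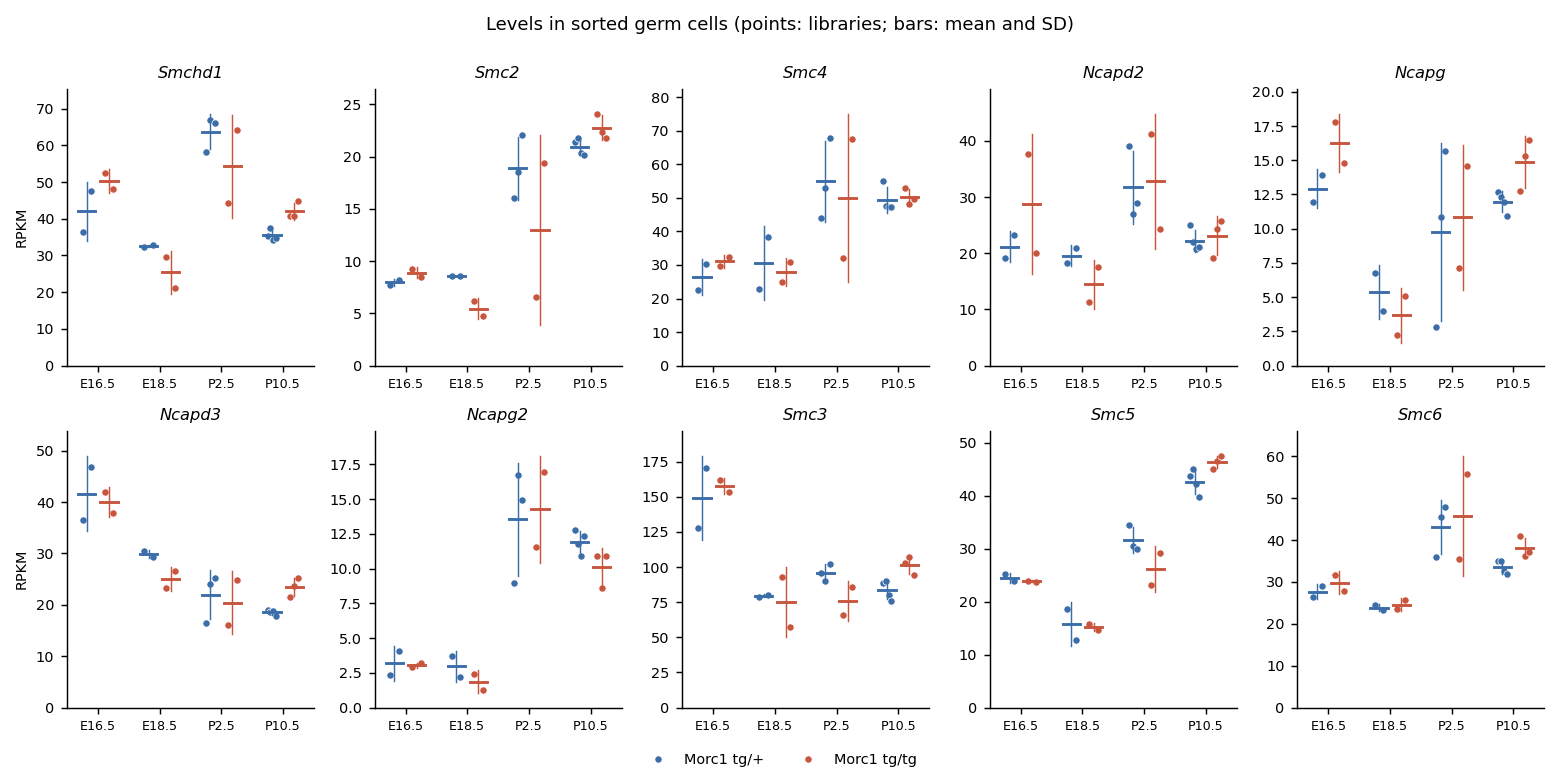
RPKM of each gene (vertical axes) in every sorted germ cell library by stage (horizontal axes), tg/+ in blue and tg/tg in red, with the mean and SD of each group. Ncapg2 lies at 2.19 to 4.06 RPKM in the tg/+ libraries before birth and at 8.96 to 16.8 RPKM in those of P2.5, while Ncapd3 is highest at E16.5.

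Across the development of tg/+ germ cells subunits of 1 complex did not all move together. Male germ cells are arrested before birth and take up mitosis again around birth, and the RNAs of the condensin core, of Ncapd2 and Ncapg2, of Smc5 and Smc6 and of Smchd1 were higher at P2.5 than at E18.5, while Ncapd3 was lower. Between E16.5 and E18.5 edgeR called 2 of the 10, Smc3 and Smc5, both lower, where 18.7% of the 16890 genes tested changed. Ncapg had the largest fold of that step without passing: it was at 11.9 and 13.9 RPKM and then at 6.76 and 3.99 RPKM, with no overlap (log2 fold -1.27, SE 0.43, adjusted p = 0.051). Ncapd3 missed the threshold as narrowly (log2 fold -0.45, SE 0.15, adjusted p = 0.053), and DESeq2, or edgeR with no filter on low counts, called both of these genes too. Between P2.5 and P10.5, where the sort differs too, Smc2 and Smc5 were higher and Smchd1 lower, 3 of 10 where 27.6% of all genes changed. Neighbouring steps share libraries, and all 3 come from 1 fit, so they are not independent.

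Ncapg2, a condensin II subunit, had the largest fold of the 10 from E18.5 to P2.5. It was at 3.73 and 2.19 RPKM at E18.5 and at 8.96, 16.8 and 14.9 RPKM at P2.5. The groups did not overlap, and the log2 fold was 2.04 (SE 0.26, adjusted p = 2.04e-05). Ncapd3, the other condensin II subunit listed, was at 30.4 and 29.4 RPKM at E18.5 and at 16.52, 24.1 and 25.2 RPKM at P2.5, lower in all 3 libraries (log2 fold -0.63, SE 0.14, adjusted p = 0.00238). Over the means of all 20 groups of libraries, log2(RPKM + 1) of these genes correlated at r = -0.60, the lowest value among the pairs; the points include groups of the same animals' line and of 2 library kits, so this is a description only.

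The condensin core also stood higher after birth. Smc2 was at 8.61 and 8.62 RPKM at E18.5 and at 16.1, 18.53 and 22.1 RPKM at P2.5, with a log2 fold of 0.94 (SE 0.14, adjusted p = 7.51e-05). Smc4 was at 22.8 and 38.4 RPKM and then at 44.1, 52.9 and 67.9 RPKM (log2 fold 0.62, SE 0.21, adjusted p = 0.0276). Both genes were higher in all P2.5 libraries, but the call of Smc4 was lost without replicate 1 of E18.5, where the fold came to 0.22, and without replicate 2 or 3 of P2.5. Of condensin I, Ncapd2 went from 18.3 and 20.9 RPKM to 39.1, 27.0 and 29.0 RPKM (log2 fold 0.50, SE 0.17, adjusted p = 0.0332). That call was lost without the first library of either stage, where the fold came to 0.30 (E18.5) and 0.35 (P2.5). Ncapg was at 6.76 and 3.99 RPKM at E18.5 and at 2.81, 10.9 and 15.7 RPKM at P2.5. Its first P2.5 library lay under both E18.5 libraries, with 50 Ncapg reads among 2638278 reads on genes. The log2 fold of Ncapg, 0.71 (SE 0.4, adjusted p = 0.171), came to 1.16 and passed without that library.

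Smchd1 was at 32.4 and 32.8 RPKM at E18.5 and at 58.2, 66.9 and 66.0 RPKM at P2.5, all 3 above both (log2 fold 0.78, SE 0.12, adjusted p = 0.000101). By P10.5 its 4 libraries were at 34.3 to 37.6 RPKM, below every P2.5 library, with a log2 fold of -0.56 from P2.5 (SE 0.095, adjusted p = 0.000395). Smc5 rose in both steps, by 0.84 (SE 0.15, adjusted p = 0.000401) and by 0.71 (SE 0.12, adjusted p = 0.000366) on the log2 scale, after a fall of 0.64 from E16.5 to E18.5 (SE 0.16, adjusted p = 0.00912) that was lost without the first E16.5 or the second E18.5 library. Its partner Smc6 rose from E18.5 to P2.5 by 0.66 (SE 0.12, adjusted p = 0.000488). For Smc2 the edgeR log2 fold from P2.5 to P10.5 was 0.43 (SE 0.11, adjusted p = 0.00798). In RPKM, however, the stages overlapped for this gene, at 16.1 to 22.1 RPKM and then 20.2 to 21.8 RPKM. RPKM is scaled by mapped reads and the folds by reads on genes, and the ratio of these differed between the stages. In that step germ cell markers were lower for 5 of 7 genes, undifferentiated spermatogonia markers for 3 of 5 and endothelial markers for 2 of 3, while differentiating spermatogonia markers were higher for 3 of 4 and Sertoli markers for 3 of 5 (29.0 to 34.4 RPKM at P2.5 and 62.4 to 107 RPKM at P10.5 in sum). Mitosis genes summed to 510 to 665 RPKM at P2.5 and 422 to 471 RPKM at P10.5. Meiosis genes summed to 151 to 212 RPKM and then 180 to 208 RPKM, which overlapped. The part of these lists in the folds was not tested.

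Smc3, the cohesin core subunit, passed the test only in the first step. It was at 128 and 170 RPKM at E16.5 and at 78.8 and 80.3 RPKM at E18.5, a log2 fold of -0.87 (SE 0.12, adjusted p = 0.000144) with no overlap. Its P2.5 libraries were at 95.8, 90.0 and 102 RPKM, and the step from E18.5 had a log2 fold of 0.08. Between E16.5 and E18.5, where Smc3 and Smc5 fell, 8 of 16 mitosis genes and 6 of 12 replication genes were lower too. So were 5 of 7 germ cell markers, with 1 higher (sums of 816 to 1058 and then 664 to 718 RPKM). Endothelial markers went from 11.8 to 14.4 RPKM in sum to 28.1 to 33.0 RPKM, with 1 of 3 higher. Undifferentiated spermatogonia markers were higher for 3 of 5 genes (11.8 to 16.1 and then 21.3 to 27.8 RPKM in sum). Their part was not tested.

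From E18.5 to P2.5, 7 of the 10 genes were higher and 1 lower, where 39.1% of all genes tested changed and 18.1% were higher; the median log2 fold of the 10 was 0.69 against -0.07 over all genes. All 16 genes of a mitosis list were higher in the same step (median log2 fold 3.09), and so were all 12 of a DNA replication list (median 2.00), among them Pcna (2.47), the sliding clamp, and Mcm2 (2.59), of the replicative helicase. The condensin subunits outside the 10, Ncaph2 of condensin II (log2 fold 1.92) and Ncaph of condensin I (0.80), rose as well. Cohesin and its loaders split, with 5 of 13 higher and 5 lower. Endothelial markers summed to 28.1 to 33.0 RPKM at E18.5 and 14.2 to 20.0 RPKM at P2.5 in these cells, with 1 of 3 genes lower. Peritubular sums went from 9.13 to 10.25 RPKM to 4.085 to 4.865 RPKM, and Leydig sums from 3.35 to 4.14 RPKM to 1.13 to 3.14 RPKM. Sertoli sums (24.2 to 40.0 and then 29.0 to 34.4 RPKM) and germ cell sums (664 to 718 and then 579 to 780.5 RPKM) overlapped. Undifferentiated spermatogonia markers rose for 4 of 5 genes (median log2 fold 2.67; 21.3 to 27.8 and then 174 to 219 RPKM in sum), and differentiating markers for 2 of 4. Summed mitosis RPKM was 163 to 199 at E16.5, 88.7 to 92.3 at E18.5 and 510 to 665 at P2.5 in tg/+ cells. The part of these lists in the members' values was not tested.

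In germ cells before P10.5 no difference between tg/tg and tg/+ passed for any of the 10 RNAs. At E16.5, E18.5 and P2.5 edgeR called none of the 10 and DESeq2 none, while 0.421%, 0.0416% and 0.0486% of all genes tested were called by edgeR; at an unadjusted p under 0.05 there were 1 (Ncapd2), 0 and 1 (Smc3) of the 10, against 8.7%, 6.21% and 4.84% of all genes. Log2 folds ran from -0.13 to 0.37 at E16.5, from -0.58 to 0.17 at E18.5 and from -0.56 to 0.13 at P2.5. Leaving out the second tg/tg library made the folds of Ncapd2 at E16.5 and Smc2 at P2.5 larger in size than these ranges. Those fits rest on 1 tg/tg library and are given with the processing. With 2 tg/tg libraries at each of these stages the SE was up to 0.5, as for Ncapg2 at E18.5. Smc2 at P2.5 shows the spread: the tg/+ libraries were at 16.1, 18.53 and 22.1 RPKM and the tg/tg libraries at 6.55 and 19.4 RPKM. The tg/tg library at 6.55 RPKM was the shallowest sorted library, with 2413679 reads on genes and 149 reads on Smc2. Smchd1 was at 36.3 and 47.7 RPKM in tg/+ and 52.5 and 48.0 RPKM in tg/tg cells at E16.5, and at 32.4 and 32.8 RPKM against 29.5 and 21.2 RPKM at E18.5. Neither difference passed (log2 fold 0.19, SE 0.095, adjusted p = 0.594 at E16.5).

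At P10.5 the condensin II genes Ncapd3 and Ncapg2 changed in opposite directions in sorted tg/tg cells. Ncapd3 was at 19.0, 18.6, 18.9 and 17.8 RPKM in the 4 tg/+ libraries and at 21.5, 23.7 and 25.1 RPKM in the 3 tg/tg libraries. All tg/tg values were higher, and the log2 fold was 0.26 (SE 0.078, adjusted p = 0.0295). Ncapg2 was at 12.8, 11.7, 10.9 and 12.3 RPKM in tg/+ and at 10.9, 8.64 and 10.9 RPKM in tg/tg cells, with a log2 fold of -0.31 (SE 0.097, adjusted p = 0.0362). Its RPKM ranges touched at the edge, while in counts scaled by each library's reads on genes they did not overlap. Each of the calls depended on single libraries: no member passed without tg/+ replicate 1 or 4 or without tg/tg replicate 2, Ncapg2 alone passed without tg/+ replicate 3, and Ncapg2 and Smc3 passed without tg/tg replicate 3. The fold of Ncapg2 came to -0.18 without tg/tg replicate 2, and that of Ncapd3 to 0.18 without tg/tg replicate 3. The Ncapd3 call was also lost with library size alone, and that of Ncapg2 with the replicate block. Among all 14019 genes tested 12.2% were called, so 2 of 10 is near the background, and DESeq2 also called 2.

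The other 8 RNAs did not pass in P10.5 germ cells, with log2 folds from -0.05 (Smc4) to 0.23 (Ncapg). Smchd1 was at 35.4, 37.6, 34.3 and 34.8 RPKM in tg/+ and at 40.6, 40.6 and 44.8 RPKM in tg/tg libraries. On this scale the groups did not meet, and the same held for 6 of the 10 genes (Smchd1, Ncapg, Ncapd3, Smc3, Smc5 and Smc6), all higher in tg/tg, where 17.1% of all genes tested were separated in that direction. In counts scaled by each library's reads on genes, however, the libraries of all of these but Ncapd3 overlapped. The edgeR log2 fold of Smchd1 was 0.16 (SE 0.074, adjusted p = 0.150), and that of Smc3, the nearest to the threshold, 0.20 (SE 0.07, adjusted p = 0.0656). Of the subunits outside the 10, Ncaph was higher (log2 fold 0.40, adjusted p = 0.0106), Rad21 of cohesin was higher (0.30), and Hdac8, the Smc3 deacetylase, and Rec8, the meiotic kleisin, were lower (-0.87 and -1.20). In the mitosis list 1 of 16 genes was higher (Ccnb1, 0.27) and none lower, and in the replication list 2 of 12 were lower (Pcna, -0.37, and Rrm2, -0.53). Markers of differentiating spermatogonia summed to 119 to 144 RPKM in tg/+ and 75.4 to 92.5 RPKM in tg/tg cells, and those of undifferentiated spermatogonia to 92.2 to 99.4 and 123 to 148 RPKM. Meiosis genes were lower for 4 of 7 (median -0.34) and Sertoli markers for 2 of 5 (62.4 to 107 against 42.3 to 88.5 RPKM in sum). Their part in the members' values was not tested. The Morc1 effect in germ cells was also compared between P10.5 and E16.5, where 1.71% of all genes tested were called: edgeR called none of the 10, DESeq2 called 1 (Ncapd3), and the same gene alone had an unadjusted p under 0.05, as did 14.2% of all genes.

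**Figure D2:**
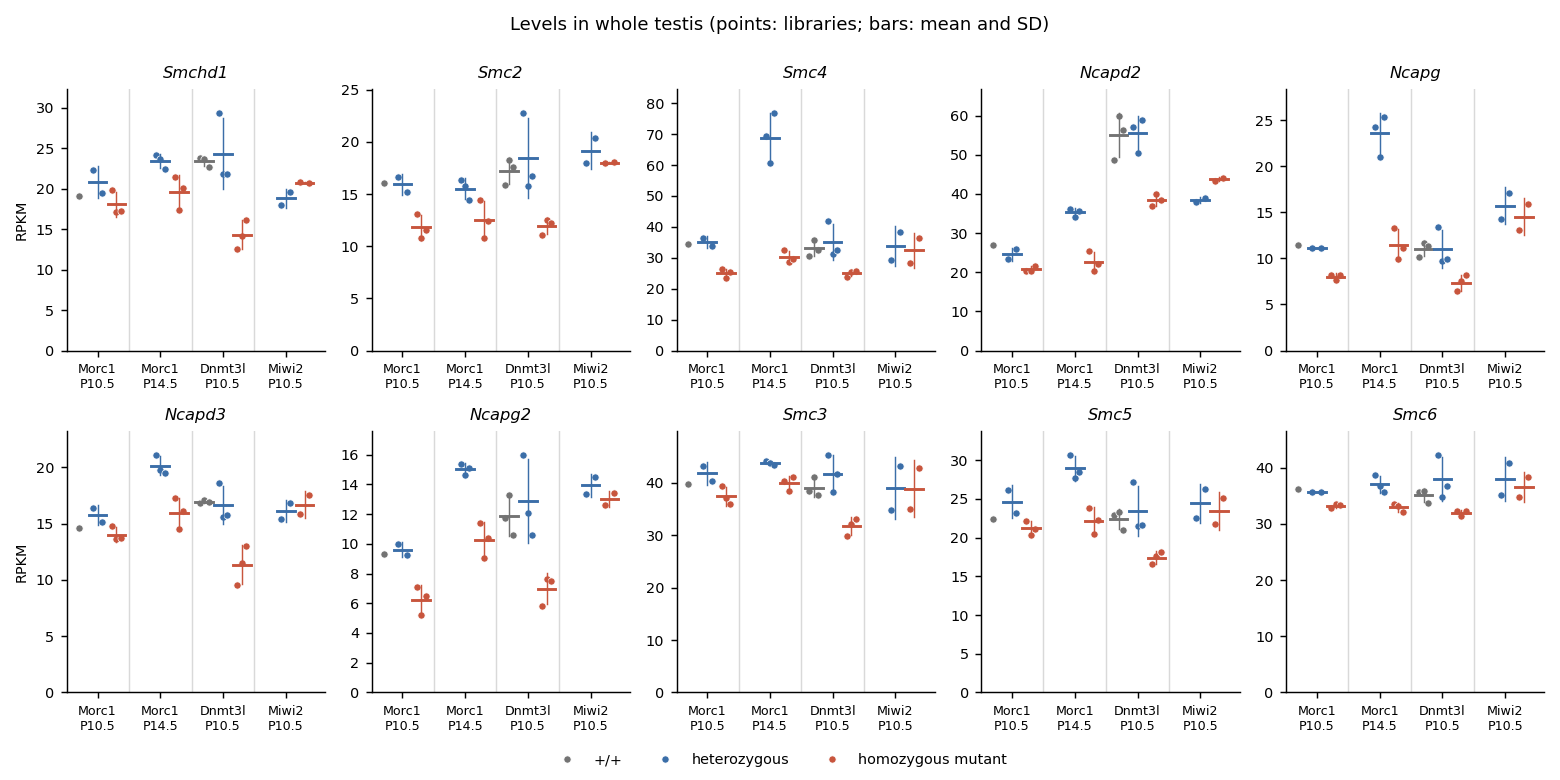
RPKM of each gene (vertical axes) in every whole testis library by line and age (horizontal axes), +/+ in grey, heterozygous in blue and homozygous mutant in red, with the mean and SD of each group. Smc4 and Ncapg are highest in P14.5 tg/+ testis (60.6 to 76.7 and 21.0 to 25.4 RPKM), and Ncapd2 is higher in Dnmt3l controls than in Morc1 controls.

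Between P10.5 and P14.5, when germ cells of the first wave enter meiosis in numbers, 7 of the 10 RNAs rose in control testis of the Morc1 line and none fell; 58.8% of the 15395 genes tested changed and 29.6% rose. The steepest were Ncapg and Smc4. Ncapg was at 11.4, 11.1 and 11.2 RPKM at P10.5 and 24.3, 21.0 and 25.4 RPKM at P14.5 (log2 fold 1.06, SE 0.074, adjusted p = 3.51e-06), and Smc4 at 34.5, 36.5 and 33.8 RPKM and then 69.3, 60.6 and 76.7 RPKM (log2 fold 0.97, SE 0.085, adjusted p = 1.07e-05). Neither gene overlapped between the ages. Ncapg2 followed with a log2 fold of 0.65 (SE 0.055, adjusted p = 8.61e-06), then Ncapd2 with 0.47 (SE 0.056, adjusted p = 7.29e-05) and Ncapd3 with 0.38 (SE 0.059, adjusted p = 0.000353). Smc2, the partner of Smc4, was at 16.0, 16.6 and 15.2 RPKM and then 16.4, 15.8 and 14.4 RPKM, a log2 fold of -0.05. The ages overlapped for this gene. Smc5 rose by 0.27 (SE 0.071, adjusted p = 0.00850) and Smchd1 by 0.20 (SE 0.066, adjusted p = 0.0242), the latter a call lost without the +/+ library, replicate 3 of the P10.5 tg/+ or replicate 1 of the P14.5 tg/+ libraries. Smc3 and Smc6 had log2 folds of 0.08 and 0.04. The P10.5 group held 1 +/+ and 2 tg/+ animals, and the P14.5 group 3 tg/+ animals.

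In the same step all 4 meiotic cohesin genes rose (median log2 fold 1.26) and all 7 meiosis genes tested (median 2.55), while the mitosis list held 4 risers, led by Bub1 (1.26), and 3 that fell. Germ cell markers rose for 6 of 7 genes (303 to 308 and then 501 to 596 RPKM in sum) and macrophage markers for 3 of 4. Of the other somatic lists, 4 of 5 Sertoli, 3 of 4 peritubular and 2 of 3 endothelial markers fell, while of the Leydig list 1 rose and 2 fell. Differentiating spermatogonia markers rose for 3 of 4 genes (median 0.54), and of the undifferentiated markers 3 of 5 fell and 1 rose (median -0.67). Of cohesin and its loaders 3 rose, with Esco2, an acetyltransferase of Smc3, at 0.76 and the loader Nipbl at 0.52, and 3 fell, led by the kleisin Rad21 at -0.48. Their part in the members' values was not tested.

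Most but not all condensin RNAs were lower in Morc1 tg/tg than in control whole testis at P10.5. The 5 genes that fell were both core subunits, both condensin I subunits and Ncapg2, and none rose; 15.3% of the 15165 genes tested were called and 9.26% were lower. Smc4 was at 34.5, 36.5 and 33.8 RPKM in the 3 controls, the +/+ animal first, and at 26.2, 23.3 and 25.3 RPKM in the 3 tg/tg libraries. Every tg/tg library lay under every control, with a log2 fold of -0.47 (SE 0.059, adjusted p = 0.000552). Smc2 was at 16.0, 16.6 and 15.2 RPKM against 13.1, 10.8 and 11.6 RPKM (log2 fold -0.42, SE 0.072, adjusted p = 0.00324). Both core RNAs thus fell by similar amounts. For condensin I, Ncapg was at 11.4, 11.1 and 11.2 RPKM against 8.22, 7.60 and 8.23 RPKM (log2 fold -0.47, SE 0.056, adjusted p = 0.000423), and Ncapd2 at 26.8, 23.5 and 25.8 RPKM against 20.3, 20.3 and 21.6 RPKM (log2 fold -0.27, SE 0.059, adjusted p = 0.0106). Of condensin II, Ncapg2 was at 9.34, 9.97 and 9.23 RPKM against 7.09, 5.20 and 6.46 RPKM, the largest fold of the 10 (log2 fold -0.59, SE 0.094, adjusted p = 0.00204).

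Ncapd3, at 14.6, 16.4 and 15.1 RPKM in controls and 14.8, 13.6 and 13.7 RPKM in tg/tg, overlapped (log2 fold -0.12, SE 0.059, adjusted p = 0.195). Smchd1 also overlapped, at 19.1, 22.3 and 19.5 RPKM against 19.9, 17.2 and 17.2 RPKM (log2 fold -0.15, SE 0.075, adjusted p = 0.195). The log2 folds of Smc3 (-0.12, adjusted p = 0.160), Smc5 (-0.16, adjusted p = 0.142) and Smc6 (-0.10, adjusted p = 0.172) did not pass, although the tg/tg libraries of these genes lay under all controls, as they did for 8 of the 10 genes and for 20.2% of all genes tested. The same 5 calls were made by DESeq2, and 5 calls stood whichever library was left out.

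At P14.5, 9 of the 10 RNAs were lower in tg/tg than in tg/+ testis, all but Smc3. Of the 15283 genes tested, 34.8% were called and 20.1% were lower. The median log2 fold of the 10 was -0.35, against 0.01 over all genes. Smc4 was at 69.3, 60.6 and 76.7 RPKM in tg/+ and 32.5, 28.7 and 29.7 RPKM in tg/tg testis (log2 fold -1.18, SE 0.093, adjusted p = 0.000102). Ncapg was at 24.3, 21.0 and 25.4 RPKM against 13.3, 9.94 and 11.1 RPKM (log2 fold -1.03, SE 0.11, adjusted p = 0.000274). In both genes the lowest tg/+ library stood well above the highest tg/tg library. Ncapd2 was at 36.2, 34.0 and 35.6 RPKM against 25.3, 20.2 and 22.0 RPKM (log2 fold -0.64, SE 0.075, adjusted p = 0.000436), and Ncapg2 at 15.4, 14.6 and 15.1 RPKM against 11.4, 9.05 and 10.4 RPKM (log2 fold -0.54, SE 0.077, adjusted p = 0.00106). Smaller folds were found for Smc5 (-0.38, SE 0.067, adjusted p = 0.00317), which was at 27.7 to 30.7 RPKM against 20.4 to 23.9 RPKM, and for Ncapd3 (-0.33, SE 0.065, adjusted p = 0.00506), at 19.5 to 21.1 RPKM against 14.49 to 17.2 RPKM.

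The remaining calls at P14.5 were less firm. Smc2 was at 16.4, 15.8 and 14.4 RPKM in tg/+ and 14.4, 10.8 and 12.4 RPKM in tg/tg (log2 fold -0.30, SE 0.092, adjusted p = 0.0336), and its call was lost without any 1 of the tg/+ libraries or without tg/tg replicate 2 or 3. Smchd1 was at 24.2, 23.7 and 22.5 RPKM against 21.5, 17.4 and 20.1 RPKM (log2 fold -0.25, SE 0.071, adjusted p = 0.0258), lost without any 1 tg/+ library. Smc6 was at 38.7, 36.6 and 35.7 RPKM against 33.5, 33.2 and 32.0 RPKM (log2 fold -0.16, SE 0.051, adjusted p = 0.0382), and its call was lost without any 1 tg/+ library or without tg/tg replicate 1 or 3; DESeq2, which called 8 of the 10, did not call it. Smc3 was at 44.1, 43.7 and 43.3 RPKM against 40.3, 38.3 and 41.1 RPKM and did not pass (log2 fold -0.12, SE 0.049, adjusted p = 0.0813).

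The change between the ages was itself tested. The Morc1 effect was more negative at P14.5 than at P10.5 for Smc4, by -0.72 on the log2 scale (SE 0.11, adjusted p = 0.00153), for Ncapg by -0.57 (SE 0.13, adjusted p = 0.0115) and for Ncapd2 by -0.38 (SE 0.099, adjusted p = 0.0301), the last a call lost with library size alone and with no filter on low counts. These are 3 of the 10 genes, against 6.73% of the 15657 tested that were lower in this comparison (8.22% called in all). Ncapg2 differed by 0.04 (SE 0.13, adjusted p = 0.887). In the same comparison meiosis genes were more negative for 6 of 7 (median -1.06), germ cell markers for 4 of 7 with 1 more positive, and mitosis genes for 3 of 16, while 1 of 5 Sertoli and 2 of 4 differentiating spermatogonia markers were more positive; their part was not tested. This test and that of the controls between the ages use the same P10.5 and P14.5 control libraries.

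**Figure D3:**
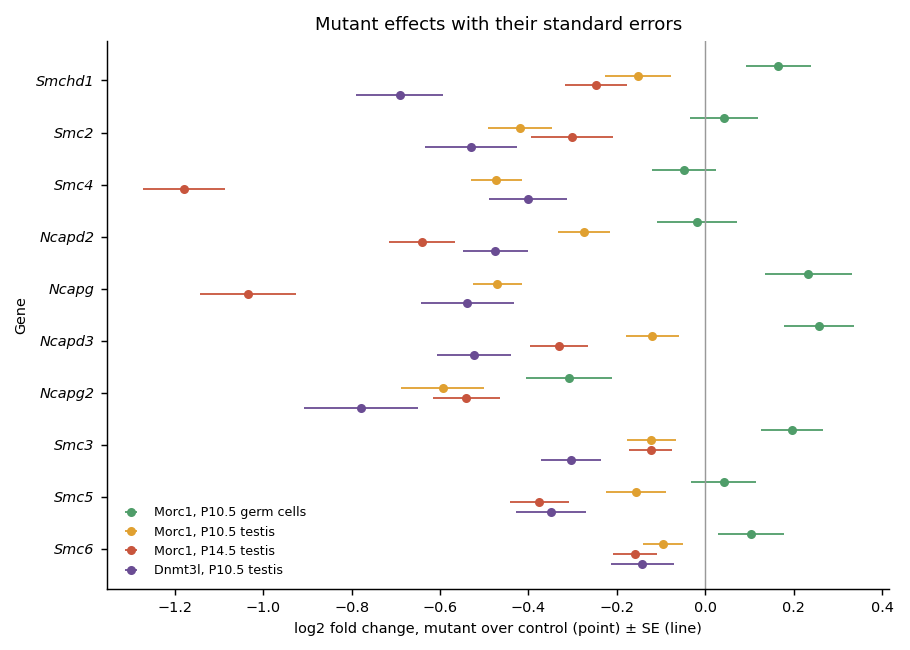
Log2 fold and SE of each gene on loss of Morc1 in P10.5 germ cells, P10.5 testis and P14.5 testis and on loss of Dnmt3l in P10.5 testis; 0 is no difference from controls. The folds of Ncapg run from 0.23 in sorted cells to -0.47 and -1.03 in testis, and that of Smchd1 is most negative, at -0.69, on loss of Dnmt3l.

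Other genes of the same complexes were measured alongside. At P10.5, Ncaph was lower (log2 fold -0.20, adjusted p = 0.0469), 3 of 13 genes of cohesin and its loaders were lower (Esco2, -0.73, Cdca5, the sororin gene, -0.43, and Stag1, -0.20), all 4 meiotic cohesin genes were lower (median -0.96, from Rec8 at -1.15 to Smc1b at -0.82), and none of 4 other Smc5/6 subunits passed. At P14.5 Ncaph was lower again (-0.39), 3 cohesin genes were lower and Rad21 higher (0.29), the 4 meiotic cohesin genes were lower (median -0.91), and Nsmce1 of the Smc5/6 complex was lower (-0.22). In the mitosis list 15 of 16 genes were lower at P10.5 (median -0.44, led by Bub1 and Plk1 at -0.62) and 14 of 16 at P14.5 (median -0.54, with Bub1 at -1.13 and Top2a at -1.02). DNA replication genes were lower for 12 of 12 at P10.5 (median -0.41) and 9 of 12 at P14.5 (median -0.37).

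Cell type markers moved in the same libraries. The 7 germ cell markers summed to 303 to 308 RPKM in P10.5 controls and 201 to 226 RPKM in tg/tg, with 5 of 7 lower, and to 501 to 596 against 295 to 327 RPKM at P14.5, with 6 of 7 lower. Meiosis genes summed to 132 to 142 against 60.5 to 70.2 RPKM at P10.5 and to 750 to 1068 against 182 to 217 RPKM at P14.5, and all 7 were lower at both ages. Differentiating spermatogonia markers were lower for 4 of 4 genes at P10.5 (83.9 to 87.3 against 38.0 to 46.2 RPKM in sum) and 3 of 4 at P14.5. Undifferentiated spermatogonia markers did not follow: at P10.5 none of 5 passed, with sums of 48.4 to 53.5 against 51.6 to 55.9 RPKM, and at P14.5 1 was higher and 1 lower. The 5 Sertoli markers summed to 2969 to 3235 against 3375 to 3798 RPKM at P10.5, with 2 of 5 higher, and to 2844 to 3155 against 3768 to 4660 RPKM at P14.5, with all 5 higher. Of the lists for other somatic cells, no Leydig or peritubular gene passed at either age, while 2 of 4 macrophage genes and 1 of 3 endothelial genes were higher at P10.5 and none of either at P14.5. In the Morc family list, which includes Morc1 itself, 4 of 4 genes tested were lower at P10.5 and 4 of 5 at P14.5. None of the germ cell, meiosis or Sertoli markers was at 0 in all libraries of a testis group. Their part in the members' folds was not tested.

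Sorted germ cells and testis of the same age could be compared in their Morc1 effect. At P10.5 it was more negative in testis than in sorted cells for Ncapg (difference in log2 fold -0.68, SE 0.12, adjusted p = 0.00321), Smc2 (-0.44, SE 0.11, adjusted p = 0.0193), Smc4 (-0.40, SE 0.097, adjusted p = 0.0186) and Ncapd3 (-0.35, SE 0.1, adjusted p = 0.0445). These were 4 of the 10, where 6.81% of the 15191 genes tested were called and 3.15% were lower. In sorted cells the core genes did not pass: Smc4 was at 55.0, 47.6, 47.3 and 47.2 RPKM in tg/+ and 52.9, 48.3 and 49.6 RPKM in tg/tg (log2 fold -0.05), and Smc2 at 20.2 to 21.8 against 21.8 to 24.1 RPKM (log2 fold 0.04). The Ncapg2 fold was negative in both (-0.31 and -0.59), and its difference did not pass. In this comparison 9 of 16 mitosis genes, 8 of 12 replication genes, 5 of 7 meiosis genes and 4 of 7 germ cell markers were also more negative in testis, and Ncaph by -0.57; their part was not tested. The Ncapd3 call was lost under RLE factors and with no filter on low counts. The comparison was added after the data were seen, and kit and sorting differ between the sources, so cell type and preparation cannot be told apart.

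**Figure D4:**
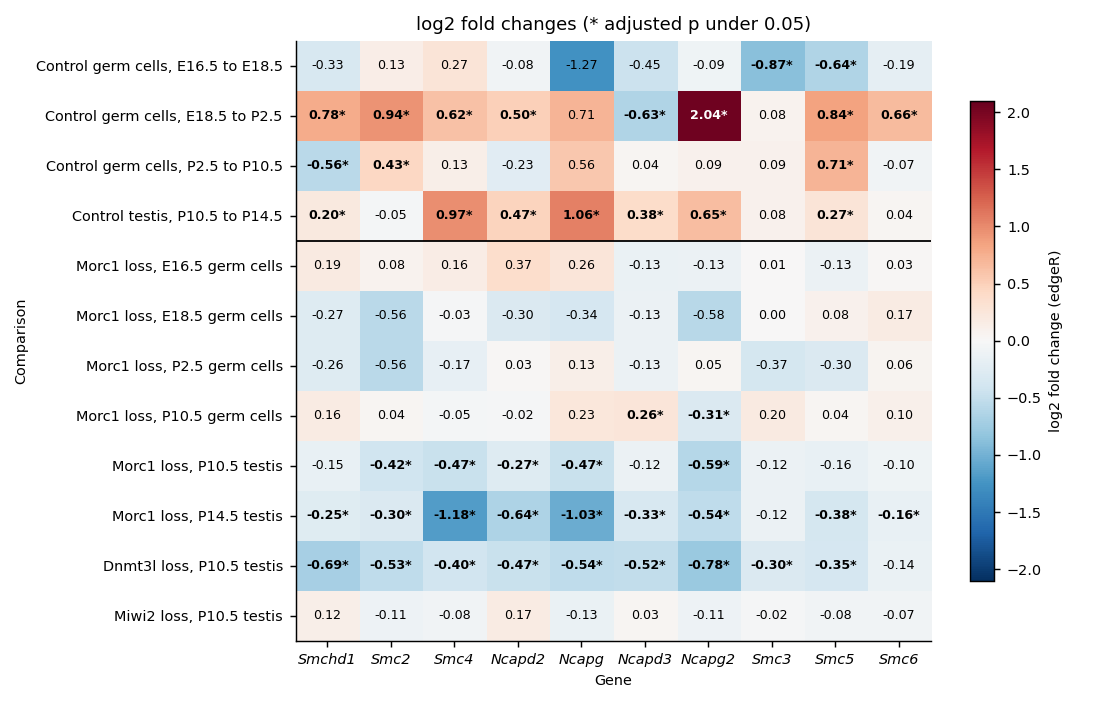
Log2 folds of the 10 genes (columns) in 12 comparisons (rows, the control series above the line), blue for lower and red for higher, with a star where the adjusted p is under 0.05. The stars of Morc1 loss lie in testis apart from Ncapd3 and Ncapg2 in P10.5 germ cells, and the Miwi2 row has none.

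DNMT3L is the cofactor of the de novo DNA methyltransferases in fetal germ cells, and Dnmt3l-/- males lose their germ cells after birth. In P10.5 Dnmt3l-/- testis 9 of the 10 RNAs were lower than in the 6 controls, all but Smc6; 53.9% of the 15665 genes tested were called and 29% were lower. The -/- libraries of all 10 genes lay under every control library on the RPKM scale, as did those of 27.7% of all genes tested. Ncapg2 again had the most negative fold. It was at 10.6 to 16.0 RPKM (median 11.9) in the controls and at 5.79, 7.64 and 7.50 RPKM in -/- testis, a log2 fold of -0.78 (SE 0.13, adjusted p = 0.00032). Smchd1 came next, at 21.8 to 29.4 RPKM (median 23.2) in controls and 12.6, 14.2 and 16.2 RPKM in -/- testis (log2 fold -0.69, SE 0.099, adjusted p = 0.000117). Ncapd3 was at 15.6 to 18.6 RPKM (median 16.9) in controls and 9.52, 11.5 and 13.0 RPKM in -/- testis (log2 fold -0.52, SE 0.085, adjusted p = 0.000282).

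The core and condensin I genes fell by comparable amounts: Ncapg by 0.54 on the log2 scale (SE 0.1, adjusted p = 0.00101), Smc2 by 0.53 (SE 0.1, adjusted p = 0.00105), Ncapd2 by 0.47 (SE 0.073, adjusted p = 0.0002) and Smc4 by 0.40 (SE 0.089, adjusted p = 0.00239). Smc5 fell by 0.35 (SE 0.079, adjusted p = 0.00267) and Smc3 by 0.30 (SE 0.067, adjusted p = 0.00237). Smc6 was at 33.8 to 42.3 RPKM in controls and 32.3, 31.4 and 32.3 RPKM in -/- testis (log2 fold -0.14, SE 0.071, adjusted p = 0.106). All 9 calls stood whichever library was left out, and DESeq2 also called 9.

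Compared directly in P10.5 testis, the Dnmt3l effect on Smchd1 was more negative than the Morc1 effect, by -0.49 on the log2 scale (SE 0.14, adjusted p = 0.0241), and Ncapd3 by -0.36 (SE 0.11, adjusted p = 0.0387). These are 2 of the 10, where 17.6% of the 15902 genes tested were called, so the number is near the background. Both calls were lost when replicate number was added as a block. The mutations were carried by different lines, so the gene lost and the line cannot be told apart. In the same comparison germ cell markers were more negative for 7 of 7 genes (median -0.88) and differentiating spermatogonia markers for 4 of 4 (median -1.15), while 3 of 5 Sertoli markers and 2 of 5 undifferentiated spermatogonia markers were more positive and 1 of the latter more negative. Their part in the members' differences was not tested. For the other 8 genes the difference did not pass. In Dnmt3l-/- testis 14 of 16 mitosis genes (median -0.53, with 1 higher) and 12 of 12 replication genes (median -0.55) were lower. So were the 4 meiotic cohesin genes (median -1.09) and 5 of 13 genes of cohesin and its loaders, led by Esco2 (-1.33) and Cdca5 (-1.02), with 1 higher. Of the subunits outside the 10, neither condensin gene passed, and Ndnl2 (0.33) and Nsmce4a (0.32) of the Smc5/6 complex were higher. Germ cell markers summed to 397 to 501 RPKM in controls and 151 to 177 RPKM in -/- testis, with all 7 lower, and differentiating spermatogonia (4 of 4) and meiosis genes (7 of 7) were lower too, with median log2 folds of -2.17 and -1.69. Markers of undifferentiated spermatogonia had 3 of 5 genes higher and 1 lower (median 0.55), with sums of 36.8 to 45.1 RPKM in controls and 39.5 to 41.6 RPKM in -/- testis. Sertoli markers summed to 2385 to 3337 against 3834 to 4249 RPKM, with 4 of 5 higher. Of the other somatic lists, 2 of 3 endothelial, 1 of 4 macrophage and 1 of 5 Leydig markers were higher, and 1 of 4 peritubular markers was lower. Their part in the members' folds was not tested.

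MIWI2 is the nuclear Piwi protein that directs DNA methylation to transposons. In the testes labelled Miwi2 KO no member passed with edgeR or DESeq2, and 1.23% of the 15997 genes tested were called by edgeR; at an unadjusted p under 0.05 there was 1 of the 10 (Ncapd2), against 20.2% of all genes. With replicate number as a block edgeR called 4 of the 10 (Smchd1 and Ncapd2 higher, Ncapg and Ncapg2 lower) and 4503 genes in place of 197; with only 2 pairs, whose same-number correlation was 0.32, the pairing could not be settled. Ncapd2 was at 38.0 and 39.0 RPKM in the libraries labelled het and 43.4 and 44.1 RPKM in those labelled KO (log2 fold 0.17, SE 0.069, adjusted p = 0.212), and Smchd1 at 18.0 and 19.6 RPKM against 20.8 and 20.7 RPKM (log2 fold 0.12, SE 0.072, adjusted p = 0.364). The libraries of these genes did not overlap, and those of the other 8 did; 52.1% of all genes tested were separated in this way, so 2 of 10 is below the background. Their log2 folds ran from -0.13 to 0.03. Germ cell markers summed to 410 to 416 RPKM in the libraries labelled het and 415 to 417 RPKM in those labelled KO, with 1 of 7 higher. Sertoli markers summed to 1735 to 1878 against 2027 to 2073 RPKM, and none passed. Leydig markers summed to 357 to 390 against 308 to 323 RPKM, with 1 of 5 lower. Sums of both spermatogonia lists and of endothelial markers were separated as well. Their part was not tested. Piwil4 RNA was not lower in the libraries labelled KO and so gives no check of these labels.

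Heterozygotes were compared with wild types in both lines, and none of the 10 passed. For Morc1 tg/+ against +/+ at P10.5, fitted over 5 libraries with the preliminary pair as a batch, log2 folds ran from -0.10 to 0.08 and no member passed with edgeR, with DESeq2 or at an unadjusted p under 0.05 (0.0131% of 15290 genes called by edgeR, and 5.93% under the unadjusted p). For Dnmt3l +/- against +/+ they ran from -0.02 to 0.12, again with no member by any of the 3 measures (0.00651% of 15370 genes called by edgeR, and 1.87% under the unadjusted p). Morc1 RNA itself was lower in tg/+ than in +/+ testis (log2 fold -0.70, SE 0.08, adjusted p = 0.00144).

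Ncapd2 differed between lines more than with any mutation. In control testis at P10.5 it was at 26.8, 23.5 and 25.8 RPKM in the Morc1 line and at 48.7, 59.9, 56.4, 57.0, 50.4 and 58.8 RPKM in the Dnmt3l line, with 28.1 and 26.0 RPKM in the preliminary Morc1 libraries. The lines did not overlap (log2 fold 1.09, SE 0.077, adjusted p = 7.01e-07). The Miwi2 het libraries, at 38.0 and 39.0 RPKM, lay between. Ncapg2 was the other member to differ (log2 fold 0.35, SE 0.11, adjusted p = 0.0316), a call lost without the +/+ or either tg/+ library of the Morc1 line or without replicate 2 of the Dnmt3l +/+ libraries, and 33.9% of the 15584 genes tested did. Germ cell markers were higher in the Dnmt3l controls for 7 of 7 genes (median log2 fold 0.59) and mitosis genes for 9 of 16 (median 0.31). The spermatogonia lists moved apart, with differentiating markers higher for 4 of 4 (median 0.63) and undifferentiated markers lower for 4 of 5 (median -0.62); no Sertoli marker passed. Their part was not tested. Line, strain and preparation cannot be told apart, and the comparison was added after the data were seen.

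Finally, the genes whose group means followed Smchd1 and Ncapg most closely were listed among the 13204 genes with a mean of at least 1 RPKM, by Pearson correlation of log2(RPKM + 1) over the 20 groups. For Smchd1 they were Lnx2 (r = 0.974), Rad50 (0.973), which encodes an SMC-like protein of DNA break repair, and Cit (0.964), the citron kinase gene. For Ncapg they were Fgfr1op (0.929), Fam98a (0.898) and Wdr35 (0.894). The groups share lines and kits, and these values are descriptions.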

How the data were processed

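RNA-seq was read from 47 libraries. The authors deposited, for each library, raw counts of reads per gene and RPKM values (reads scaled by exon length and mapped reads). By their methods reads were trimmed to 50 bases and kept when they matched 1 place with up to 2 mismatches, and they were counted on genes with HTSeq on mm9; their processing notes also name Bowtie, and no source used here says which aligner made the gene tables. Sorted cells were prepared with an Ovation FFPE kit after rRNA depletion, and testes with TruSeq v2. HTSeq was run with default parameters, which count a read only on the strand of its gene.

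Counts were fitted with edgeR 4.0.16 in R 4.3.3 (filterByExpr, TMM factors, quasi-likelihood F test), two-sided; p-values were adjusted by Benjamini and Hochberg's method across the genes of a fit, at 0.05. Controls were +/+ and heterozygous libraries together where both existed. Among the fits, the 2 preliminary Morc1 libraries entered the heterozygote comparison and an alternative fit of Morc1 loss in P10.5 testis, each with a batch term. The group means used for the correlations included both libraries. SE is the log2 fold divided by the square root of F. RPKM served for levels. Alternatives were RLE factors, library size alone, DESeq2 1.42.0, no filter on low counts, each library left out, a replicate block and other control sets. The fits were tested on simulated data. Each library is 1 animal.

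All 10 members were named in every comparison, with up to 4 genes of each of 16 lists (103 genes, 3 of them without a row) chosen by the largest change past the threshold. The members and lists were chosen with earlier results of these data known. Replicate numbers were not taken as pairs: with 3 or more pairs no comparison had all same-number correlations over 0.1, and comparisons with 2 pairs, Miwi2 among them, could not be settled. Small RNA libraries were not used here.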

Additional observations from a re-analysis of the deposited data

Results flagged for a closer look

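Values of single libraries stood apart in 4 cases by Dixon's test, which chance alone gives in about 1 in 20 tests. It was made for each gene in P10.5 tg/+ germ cells and in the Dnmt3l testis controls only. Smc4 was at 55.0 RPKM in the first P10.5 tg/+ germ cell library, against 47.2 to 47.6 RPKM in the other 3. In the first Dnmt3l +/- testis library Smchd1 (29.4 RPKM), Smc2 (22.8 RPKM) and Smc6 (42.3 RPKM) were above the 5 other controls of that line. That library also held the value farthest from the rest for every other member but Ncapd2, so these flags are not independent. All 9 calls on loss of Dnmt3l stood without it.

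Effects differed between conditions by an interaction test in 9 cases, over comparisons where 8.22%, 6.81% and 17.6% of all genes tested were called. The Morc1 effect in testis was more negative at P14.5 than at P10.5 for Smc4 (-0.72 on the log2 scale), Ncapg (-0.57) and Ncapd2 (-0.38), the last lost with library size alone and with no filter. At P10.5 it was more negative in testis than in sorted cells for Ncapg (-0.68), Smc2 (-0.44), Smc4 (-0.40) and Ncapd3 (-0.35), the last lost under RLE factors and with no filter. The Dnmt3l effect was more negative than the Morc1 effect in P10.5 testis for Smchd1 (-0.49) and Ncapd3 (-0.36), both lost with the replicate block.

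In 5 further pairs all mutant libraries lay above the controls in 1 condition and below them in another, in counts scaled by each library's reads on genes. The difference was not tested. These pairs were separated in RPKM too, and so were others, such as Smc2 between E16.5 and E18.5. In RPKM, 5.12% to 9.51% of all genes tested in both conditions of a pair were separated in opposite directions. The pairs were picked from many pairs of conditions over the 10 genes, so they give no result about the members. For Smchd1 the Morc1 fold was lower at E18.5 than at E16.5 in germ cells (-0.46) and lower in P14.5 testis than in E16.5 germ cells (-0.43). For Ncapg it was lower than in E16.5 germ cells by -0.73 in P10.5 testis and -1.29 in P14.5 testis, and for Ncapd3 it was lower in P14.5 testis than in P10.5 germ cells (-0.59).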

How the results depend on the processing

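Of the 56 member results past the threshold, tried under settings other than leaving out a library, 305 of 322 values kept their direction and their call, 17 lost the call and 0 reversed; with each library left out, 273 of 308 kept the call, 35 lost it and 0 reversed. Among 1240 values of member results not past it, 23 gained a call.

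For Morc1 loss in P10.5 germ cells, 2 members passed, 1 with library size alone (Ncapg2), 1 with the replicate block (Ncapd3), 3 with no filter on low counts and 0 to 3 with a library left out. From E16.5 to E18.5 in tg/+ cells 2 passed, 4 with DESeq2 and 4 with no filter, which added Ncapg and Ncapd3, and 1 to 4 with a library left out. For Miwi2, where none passed, the replicate block gave 4, Smchd1 and Ncapd2 higher, Ncapg and Ncapg2 lower, while it took the calls among all genes from 197 to 4503. The same-number correlation there was 0.32 over 2 pairs. With the block the difference of the Dnmt3l and Morc1 effects kept 0 of 2 members. DESeq2 called 1 member, Ncapd3 (log2 fold 0.39), in the difference of the Morc1 effect between P10.5 and E16.5 germ cells, where edgeR called 0. With a library left out the number called ran from 0 to 1 at E16.5 (Ncapd2, log2 fold 0.74, without the second tg/tg library) and at P2.5 (Smc2, -1.49, without the second tg/tg library), from 6 to 8 for Morc1 loss at P14.5, from 6 to 8 from E18.5 to P2.5, from 6 to 8 in control testis between the ages, and from 1 to 2 between lines, where Ncapg2 was lost without the +/+ or either tg/+ Morc1 library or the second Dnmt3l +/+ library.

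Further calls lost were Smc6 at P14.5 under RLE factors, DESeq2, no filter and the block, Ncapd2 from E18.5 to P2.5 under RLE factors and, with Smc4, when only those stages were fitted, Smc5 from E16.5 to E18.5 when only those stages were fitted, Smchd1 between ages with tg/+ controls alone, Ncapd2 in the difference of the ages with library size alone and with no filter, and Ncapd3 in the difference of testis and sorted cells under RLE factors and no filter. Smc6 on loss of Dnmt3l passed with library size alone (log2 fold -0.18). The causes were not tested. No replicate block could be fitted for Morc1 tg/+ against +/+. No library was left out in the tests of differences between effects.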
